A study of Mus musculus with 12 samples.

Results

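Wild-type megakaryocyte-erythroid progenitors (MEP) carried 372 summits of MOF occupancy at the ends of protein-coding genes. The members were the summits of the wild-type MEP list on chromosomes 1 to 19 and X that lay within 1 kb of an annotated gene end, meaning either boundary of a gene, its start or its downstream end. Summits whose nearest gene end belonged to a histone gene (30 summits) or a cytosolic ribosomal protein gene (16 summits) were left out. The members made up 43.6% (95% Wilson interval 40.3 to 46.9%) of the 854 summits on these chromosomes. The whole list held 898 summits, and the 5 peak lists of the series held 3653 peaks. Intervals on shares cover counting error only.

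The study used chromatin immunoprecipitation and sequencing (ChIP-seq) in mouse blood progenitors. MEP (30000 cells, lineage-negative, Sca-1-negative, cKit-positive, CD34-negative, IL7r-negative and CD16/32-negative) and haematopoietic stem cells (HSC; 15000 cells, lineage-negative, Sca-1-positive, cKit-positive, CD34-negative and Flt3-negative) were sorted from C57BL/6 bone marrow. MOF was precipitated from wild-type cells and from cells labelled Mof-/+, which carry 1 wild-type copy of Mof. HPC7, a mouse haematopoietic progenitor line grown with 10% serum and 10 ng/mL stem cell factor, gave a list for the transcription factor GATA1. Marrow was pooled over bones. The sources used here give neither the age nor the number of the animals, and each group had 1 library. No difference between cell types or genotypes therefore has a replicate check, and read depth is unknown.

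MOF, encoded by Kat8, is the main acetyltransferase of lysine 16 on histone H4, a mark that loosens chromatin. In mammals it works in the MSL complex and in the NSL complex, and the latter is known to sit at the promoters of widely expressed genes. MEP give rise to red blood cells and to platelet-forming megakaryocytes. Promoters of widely expressed genes are mostly rich in G, C and CpG and often hold GC boxes (bound by SP and KLF factors), ETS sites and NRF1 sites.

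The sequences below are the 250 bases before the promoter table's gene start at 8 members, printed from RefSeq (build GRCm38.p6, the same coordinates as mm10), 5' to 3' on the strand of the gene. They are shown because they are the member promoters with the highest peak values whose window of 250 bases before to 50 bases after the start of the nearest gene held the MOF summit. Capitals mark matches, on either strand, to the GC box (GGGCGG), the NRF1 motif, the ETS motif (CCGGAAG), the E-box (CACGTG), the TATA box (TATAAA), the CCAAT box (CCAAT) and the 4 GATA words, which are GATA with A or T before it and A or G after it.
Srsf1, chr11:88047123-88047372, plus strand: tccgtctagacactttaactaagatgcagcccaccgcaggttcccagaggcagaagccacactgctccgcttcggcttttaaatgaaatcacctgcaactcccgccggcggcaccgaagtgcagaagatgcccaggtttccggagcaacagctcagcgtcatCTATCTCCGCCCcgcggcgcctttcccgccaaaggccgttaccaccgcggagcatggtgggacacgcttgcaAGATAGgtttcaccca
Smarca5, chr8:80739460-80739709, minus strand: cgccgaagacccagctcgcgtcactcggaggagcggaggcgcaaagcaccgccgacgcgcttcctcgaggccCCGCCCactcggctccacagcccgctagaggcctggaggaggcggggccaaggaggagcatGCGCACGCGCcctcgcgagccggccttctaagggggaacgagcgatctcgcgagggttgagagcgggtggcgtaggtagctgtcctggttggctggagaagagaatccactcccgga
Camsap1, chr2:25983283-25983532, minus strand: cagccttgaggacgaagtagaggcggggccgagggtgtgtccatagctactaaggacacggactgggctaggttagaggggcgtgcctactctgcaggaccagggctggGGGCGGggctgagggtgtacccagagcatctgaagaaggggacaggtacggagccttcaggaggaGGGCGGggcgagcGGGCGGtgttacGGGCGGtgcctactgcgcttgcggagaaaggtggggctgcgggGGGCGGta
Nol11, chr11:107189382-107189631, minus strand: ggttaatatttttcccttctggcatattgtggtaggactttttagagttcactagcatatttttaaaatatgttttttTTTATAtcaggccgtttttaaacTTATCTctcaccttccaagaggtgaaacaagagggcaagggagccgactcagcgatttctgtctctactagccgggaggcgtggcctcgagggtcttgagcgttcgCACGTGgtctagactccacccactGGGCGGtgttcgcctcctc
Pcbp2, chr15:102470289-102470538, plus strand: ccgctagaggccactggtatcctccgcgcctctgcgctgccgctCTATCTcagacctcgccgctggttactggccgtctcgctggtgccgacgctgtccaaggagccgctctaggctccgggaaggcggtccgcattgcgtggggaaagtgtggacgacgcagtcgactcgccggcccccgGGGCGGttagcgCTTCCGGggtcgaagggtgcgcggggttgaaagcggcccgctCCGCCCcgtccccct
Ep400, chr5:110770718-110770967, minus strand: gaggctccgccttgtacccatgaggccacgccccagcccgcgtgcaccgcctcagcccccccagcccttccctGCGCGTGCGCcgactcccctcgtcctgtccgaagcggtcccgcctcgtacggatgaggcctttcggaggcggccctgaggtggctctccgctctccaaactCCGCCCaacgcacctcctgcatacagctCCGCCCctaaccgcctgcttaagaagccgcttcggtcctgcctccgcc
Phf23, chr11:69995516-69995765, plus strand: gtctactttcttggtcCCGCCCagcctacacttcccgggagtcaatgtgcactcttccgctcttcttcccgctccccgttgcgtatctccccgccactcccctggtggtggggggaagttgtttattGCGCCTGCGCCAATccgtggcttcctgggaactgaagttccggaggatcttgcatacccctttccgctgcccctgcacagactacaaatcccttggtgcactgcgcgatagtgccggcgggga
Eif4a3, chr11:119300044-119300293, minus strand: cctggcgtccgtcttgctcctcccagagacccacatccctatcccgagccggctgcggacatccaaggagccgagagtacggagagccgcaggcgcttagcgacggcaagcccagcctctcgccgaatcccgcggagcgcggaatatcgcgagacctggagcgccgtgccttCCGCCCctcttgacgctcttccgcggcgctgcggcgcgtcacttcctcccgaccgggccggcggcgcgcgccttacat

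Each of these 8 windows held at least 1 GC box, and Camsap1 held 5. Its product binds the minus ends of microtubules. NRF1 matches stood in front of Smarca5, Ep400 and Phf23. In Phf23 the last base of the NRF1 match is the first base of the CCAAT match. Only Ep400, which encodes a chromatin remodelling ATPase, had an HSC summit at the same start. The 7 others had none within 1 kb of the outer gene boundary, among them Smarca5, which encodes the ISWI ATPase SNF2H. GATA words stood in front of Srsf1 (AGATAG, on both strands), Nol11 (AGATAA) and Pcbp2 (AGATAG). Srsf1 encodes a splicing factor, Nol11 a protein of ribosomal RNA synthesis and Pcbp2 an RNA-binding protein. For Srsf1 the summit lay 42 bp after the start used by the promoter table and 916 bp from the outer gene boundary, so the choice of start moves its position. Widened by 150 bp on each side, this summit met a peak of 1 other list, although no other list had one within 1 kb of that boundary. The lack of an HSC summit at Srsf1 is therefore stated for the outer boundary only.

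The members clustered at gene starts. The promoter table gave the strand for the nearest gene of 307 members. Of these, 286 (93.2%, 89.8 to 95.5%) lay nearest to the start and 21 (6.84%, 4.52 to 10.2%) nearest to the downstream end. Over all starts with a known strand, 1.99% had a wild-type MEP summit within 1 kb, against 0.24% of downstream ends. In the wild-type HSC list the corresponding shares were 6.11% and 0.456%.

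Around the start the summits formed a narrow group. The median signed position was -21.5 bp (interquartile range -156.5 to 108.75 bp, negative upstream), and 130 of 286 summits (45.5%) lay within the gene. Over all 372 members the median distance to the nearest gene end was 141 bp, and 279 (75%) lay within 250 bp. Only 40 members lay between 500 bp and 1 kb, and a window of 2 kb added 45 summits. The summits just inside the limit were at Mtrf1l (977 bp), Cabyr (974 bp) and Rpain (937 bp), and those just outside at Ppp6r2 (1054 bp), Prss8 (1062 bp) and Gadd45a (1072 bp). Their peak values were 8.42, 5.27 and 6.11 inside and 5.38, 135 and 3.82 outside. The summit near Prss8, the gene of a membrane-bound serine protease, was thus stronger than every member. It lay at chr7:127924655, close to the strongest member, at Kat8 on the same chromosome (chr7:127912654).

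**Figure D1:**
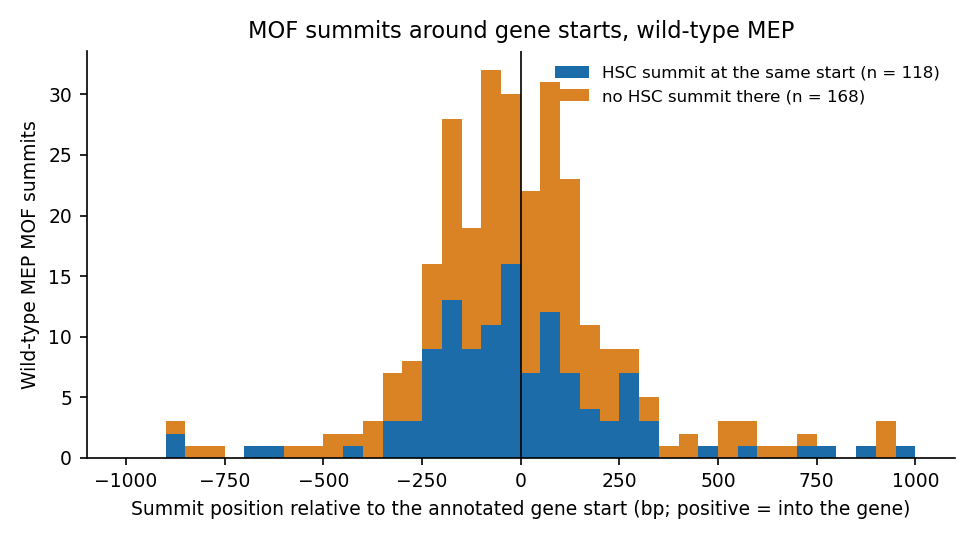
Position of the 286 wild-type MEP MOF summits at gene starts, in base pairs from the annotated start, in bins of 50 bp; bars are stacked by presence (blue, n = 118) or absence (orange, n = 168) of a wild-type HSC summit within 1 kb of the same start. Both sets centre near the start, with medians of -36 and -7 bp.

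Ends of at least 1 further gene lay within 1 kb of 90 members (24.2%, 20.1 to 28.8%). In 49 members (13.2%) these were the starts of 2 genes on opposite strands. The strongest of these lay within 1 kb of the starts of Cep95 and Ddx5 (chr11:106788697, peak value 12.6), Dtl and Ints7 (chr1:191575832, 11.6), Rab2b and Tox4 (chr14:52279411, 10.3) and Rsrc2 and Kntc1 (chr5:123749406, 10.1). Ddx5 encodes an RNA helicase, Dtl a ubiquitin ligase substrate receptor of DNA replication control, Ints7 an Integrator subunit, Tox4 a subunit of a phosphatase complex, and Kntc1 a kinetochore protein. Of all starts with an opposite start within 1 kb upstream, 5.36% (60 of 1120) had a MEP summit, against 1.76% (281 of 15990) of the other starts. These counts are of starts, so 1 summit near 2 opposite starts can count for both, which raises the first share. An HSC summit lay at the same end in 23 of the 49 (46.9%, 33.7 to 60.6%) and in 109 of the 282 members with a single gene (38.7%, 33.2 to 44.5%), and these intervals overlap.

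Each summit carries a −log10 value from the authors' peak caller, read here as −log10 of a q-value and called the peak value. It ranks summits within a list and measures confidence in a peak, not the amount of bound MOF. The members had a median peak value of 5.19 (interquartile range 3.83 to 6.85). The 436 other summits on these chromosomes, away from gene ends, had a higher median of 5.98 and a wider range (interquartile range 4.23 to 10.7, highest 202). The left-out histone and ribosomal protein summits had a median of 5.45. Members at starts and at downstream ends had medians of 5.26 and 5.02.

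A wild-type HSC summit lay within 1 kb of the same gene end for 144 of the 372 members (38.7%, 33.9 to 43.8%). Of all 42880 gene ends outside the left-out families, 1.09% had a wild-type MEP summit within 1 kb and 3.07% had an HSC summit. Measured from the summits, 143 of 372 members (38.4%) and 112 of 436 other MEP summits (25.7%) had an HSC summit within 1 kb. The odds ratio was 1.805 (95% interval 1.324 to 2.466, two-sided Fisher's exact test, p = 0.00011). The test compares summits of 1 pair of libraries, not cell types. Among summits above the median peak value it was not past the threshold of 0.05 (odds ratio 1.44, two-sided Fisher's exact test, p = 0.0905). The HSC list itself was richer in gene ends, with 1102 of 1850 summits (59.6%) at them by the same rule.

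The shared gene ends had their summits close together. The gap between the MEP summit and the nearest HSC summit had a median of 96 bp, and it was within 100 bp in 75 of 144. At starts 118 of 286 members (41.3%, 35.7 to 47.0%) had an HSC summit, and at downstream ends 4 of 21 (19%, 7.67 to 40%). Members with an HSC summit had a median peak value of 5.51 (interquartile range 3.86 to 7.27) and those without one 5.0 (3.82 to 6.31), so the ranges overlapped widely. With members ordered from low to high peak value and cut into 4 sets of 93, 37.6%, 30.1%, 38.7% and 48.4% had an HSC summit. In the HSC list, the summits at shared ends had a median peak value of 6.24, against 5.18 for gene-end summits without a member at that end.

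**Figure D2:**
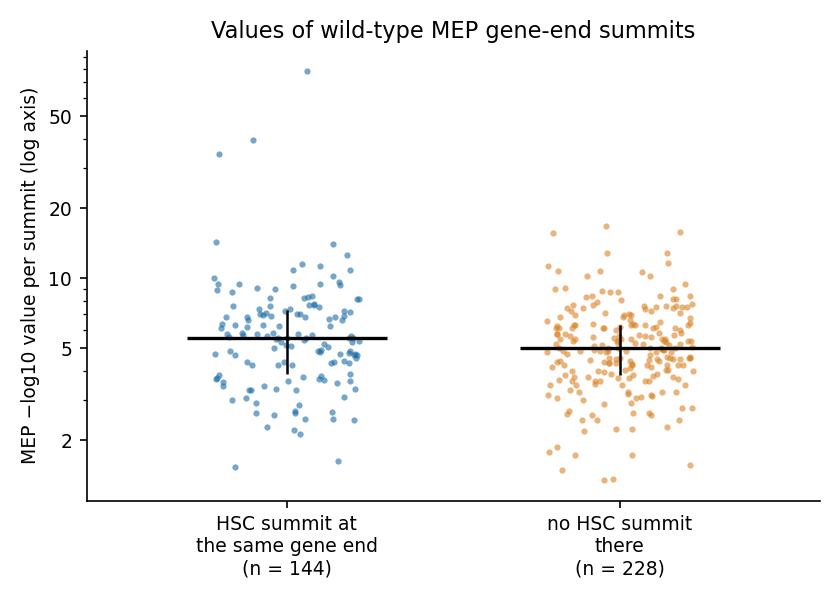
Peak value (−log10, log axis) of each wild-type MEP gene-end summit, by presence (n = 144) or absence (n = 228) of a wild-type HSC summit at the same gene end; lines mark the median and the interquartile range. Medians are 5.51 and 5.0, and the members above 20 all have an HSC summit.

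The strongest member was at Kat8, the MOF gene itself (chr7:127912654, 137 bp into the gene). Its peak value was 78.1 in MEP and 34.4 in HSC. Next came Lars2, the gene of the leucyl-tRNA synthetase of mitochondria (chr9:123462002, 39.4 in MEP and 44.8 in HSC), where the summit lay 673 bp inside the downstream end. The third was Gm40364, a predicted gene, also at its downstream end (chr6:47681220, 34.4 and 9.02). These 3 were the only members above 20.

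Among the other strong members with an HSC summit, Brpf1, a scaffold of MOZ and MORF acetyltransferase complexes, had 14.3 in MEP and 11.3 in HSC. Srsf2, a splicing factor, had 9.45 and 11.3. Cox20, an assembly factor of cytochrome oxidase, had 11.3 and 10.5, and Ep400 had 10.9 and 10.5. At other genes the MEP value was well above the HSC value, for example at Tmem259 (14.0 and 4.23), at Irf9, a transcription factor of the interferon response (10.8 and 4.04), at Rab2b (10.3 and 3.00) and at Strn (9.60 and 3.28). Eapp, which encodes an E2F-associated protein, had 9.42 and 9.68. Values from lists of different length and unknown depth cannot show whether binding differed.

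Over the 144 members with an HSC summit, the MEP value and the highest HSC value at that end had a Pearson correlation of 0.592. The Spearman correlation was 0.114, as a description over gene ends of 2 libraries. Kat8 and Lars2 were high in both lists. The MEP value was the higher one for 55 of the 144 members.

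**Figure D3:**
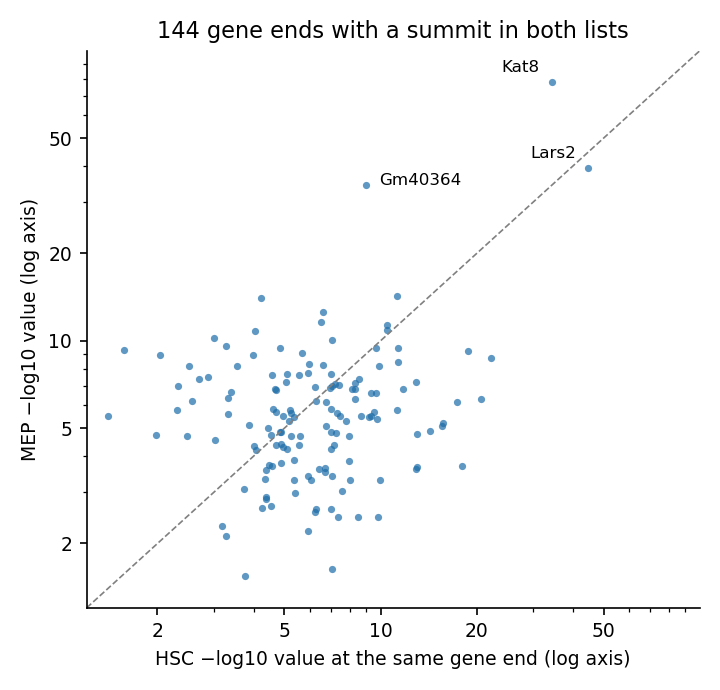
Peak values (−log10, both axes log) of the 144 members with a wild-type HSC summit at the same gene end, MEP against the highest HSC value there. The dashed line marks equal values. Kat8 and Lars2 stand far above the rest in both lists, and Gm40364 in MEP alone.

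The 15 strongest members without an HSC summit ranged from 16.8 to 8.96. Srsf1, judged at its outer gene boundary, led (chr11:88047415, 16.8), followed by Smarca5 (chr8:80739633, 15.9). Wls, which encodes the carrier of Wnt proteins, had 15.6 at a summit 890 bp past its downstream end (chr3:159939556). Camsap1 (12.9), Nol11 (12.8), Catspere2 (11.6), Pcbp2 (11.2), the Phf23 and Gabarap pair (10.8) and Eif4a3 (10.8) came next. Eif4a3 encodes the helicase of the exon junction complex, and Gabarap an autophagy protein. Then came Cdk2ap2 (10.6), the kinase gene Akt2 (10.3), Fbrs (10.2), Ddx18, an RNA helicase of ribosome assembly (9.49), Psmd5, a proteasome assembly chaperone (9.09), and Cstf2t, a factor of mRNA cleavage (8.96). RNA-processing genes thus stood on both sides, with Srsf2 among the shared members and Pcbp2 among those without an HSC summit.

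The functions of the genes were read from 22 gene lists. Over all 21440 protein-coding genes outside the left-out families, 458 (2.14%) had a member summit within 1 kb of an end, and 6.06% had a wild-type HSC summit there. The lists held 163 of the 458 genes, and 158 of the 372 members had a listed gene. The largest shares were those of the MOF complexes (a list of 15 genes), splicing, general transcription, erythroid and chromatin genes, in this order. The smallest above 0 were those of zinc finger, membrane traffic and solute carrier genes. Among summits above the median peak value, the count of 13 of the 17 lists with a member differed from that given here by more than 1.5 times.

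Splicing factors and hnRNPs had the largest share among the lists of over 20 genes, with 18 of 193 genes (9.33%) at a member and a median peak value of 5.79. In HSC, 47 of the 193 (24.4%) had a summit, and 11 of the 18 had one at the same gene end. After Srsf1 (16.8) came Ddx5 (12.6), Pcbp2 (11.2), Eif4a3 (10.8), Srsf2 (9.45) and Hnrnph3 (6.80). The RNA-binding protein gene Ewsr1 (6.32 in MEP, 20.6 in HSC) and the splicing factor gene Srsf3 (6.30 and 8.31) were also members with an HSC summit. Among ribosome biogenesis genes 9 of 141 (6.38%) had a member, with a median of 7.22, and 6 of the 9 had an HSC summit. Nol11 (12.8), Ddx18 (9.49), Nop14 (7.73), Fbl, which encodes fibrillarin (7.62), Senp3 (7.22) and Bysl (5.62) led. The Senp3 summit, whose value is the median of this list, lay 664 bp from the downstream end of Senp3. It lay nearest to the start of Eif4a1 and also counts for that gene among the translation factors.

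General transcription genes counted 13 of 165 (7.88%), 8 of them with an HSC summit. They included Polr2a, the largest subunit of RNA polymerase II (7.16 in MEP, 8.29 in HSC), the Integrator gene Ints7 (11.6), the elongation factor Ell (7.62), and 3 genes of the elongation kinase P-TEFb, its cyclin gene Ccnt1 (5.63) and the regulators Mepce (7.08) and Hexim1 (3.35). The RNA polymerase III subunit gene Polr3e had 5.76, and the Mediator gene Med20 had 5.62. Genes of mRNA end processing, export and decay counted 10 of 147 (6.80%), led by Cstf2t (8.96), Rcc1 (6.87), Ranbp1 (6.13), Mtrex (6.12), Tpr (5.51) and Dcp1b (4.88). Translation factors and tRNA synthetases counted 6 of 109 (5.50%), and in HSC 18 of the 109 (16.5%) had a summit. Over all members 38.7% had an HSC summit at the same gene end. Of the 6 genes only Eif1 (8.25) had one. The other 5 were Eif4a1 (7.22), Eif2s3x (6.28), Eef1a1 (4.02), Eif4g2 (3.48) and Eif3d (1.72).

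Chromatin modifiers and remodellers counted 20 of 275 (7.27%), the largest number of genes of any list, with a median of 5.09, and 9 of the 20 had an HSC summit. Smarca5 (15.9), Brpf1 (14.3), Ep400 (10.9), the arginine methyltransferase gene Carm1 (8.17), Ing5 (7.51) and Spty2d1 (6.84) were the strongest. Brpf1, Ing5 and Kat7 (5.0) encode parts of related histone acetyltransferase complexes. Of 15 genes of the MOF complexes, 2 had a member, Kat8 (78.1) and the NSL subunit gene Phf20 (8.42, no HSC summit). The HSC list had summits at 4 of the 15.

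Cell cycle genes counted 15 of 215 (6.98%), with a median peak value of 4.43. Kntc1 (10.1), Haus8 (6.15), Cdk4 (5.76), Tacc3 (5.76), Cep76 (5.05) and Cenpu (4.84) led. The cyclin gene Ccna2 (4.54) and the kinase gene Cdk1 (3.80) had no HSC summit. DNA repair and replication counted 7 of 229 (3.06%), with Dtl (11.6) and the repair scaffold Mdc1 (6.36) highest. Mitochondrial respiration and translation genes counted 13 of 213 (6.10%), or 7 with a window of 500 bp, with Lars2 (39.4), Cox20 (11.3), Mtrf1l (8.42), Mrpl54 (8.37), Mrpl34 (8.06) and Tfb2m (7.52) highest. Chaperone genes counted 7 of 114 (6.14%), among them Cct5 (8.95), Hspa4 (6.91), Hspa8 (6.78), Cct8 (5.61) and Calr (5.10).

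Ubiquitin and proteasome genes counted 14 of 337 (4.15%), with Psmd5 (9.09), Fbxo47 (7.66) and Klhl12 (5.76) highest. Membrane traffic and lysosome genes counted 9 of 371 (2.43%), with a median of 3.71, and Gabarap (10.8) and Rab2b (10.3) far above the third, Atp6v0d1 (5.70). The Gabarap summit lay nearest to the start of Phf23 and 619 bp from the downstream end of Gabarap. Genes named Zfp, Zbtb, Zscan or Zkscan counted 11 of 465 (2.37%), led by Zfp408 (7.45), Zfp568 (6.97) and Zfp335 (5.21). Solute carriers counted 3 of 375 (0.8%), Slc39a7 (5.70), Slc35e2 (4.71) and Slc25a44 (4.35). The shares of these last 3 lists were near or below the 2.14% of all genes.

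Genes of the erythroid lineage counted 6 of 78 (7.69%), with a median peak value of 7.20, and the HSC list also had summits at 6 of the 78, of which 3 were at the same gene ends. Tfrc, the transferrin receptor gene (8.35), Car1, a carbonic anhydrase gene of red cells (7.56), and Ftl1, the ferritin light chain gene (2.27), had no HSC summit. Zfpm1, which encodes the GATA1 partner FOG1 (8.28 in MEP, 5.99 in HSC), Tmcc2 (6.84 and 4.68) and the kinase gene Pim1 (4.88 and 14.3) had one. Of the 77 stem and progenitor transcription factor genes, 2 had a member (4 with a window of 2 kb), Zfpm1 and the E-protein gene Tcf3 (6.52). None of 31 megakaryocyte and platelet genes, 27 myeloid, 28 lymphoid, 11 mast cell and basophil or 14 stromal and endothelial genes had a member or an HSC summit. These lists are small, and their intervals reach from 0 to at least 11.0%, so they include the 2.14% of all genes. With a window of 2 kb, 2 myeloid genes had a member. MOF peaks are not expression, so these lists do not check the identity of the sorted cells.

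**Figure D4:**
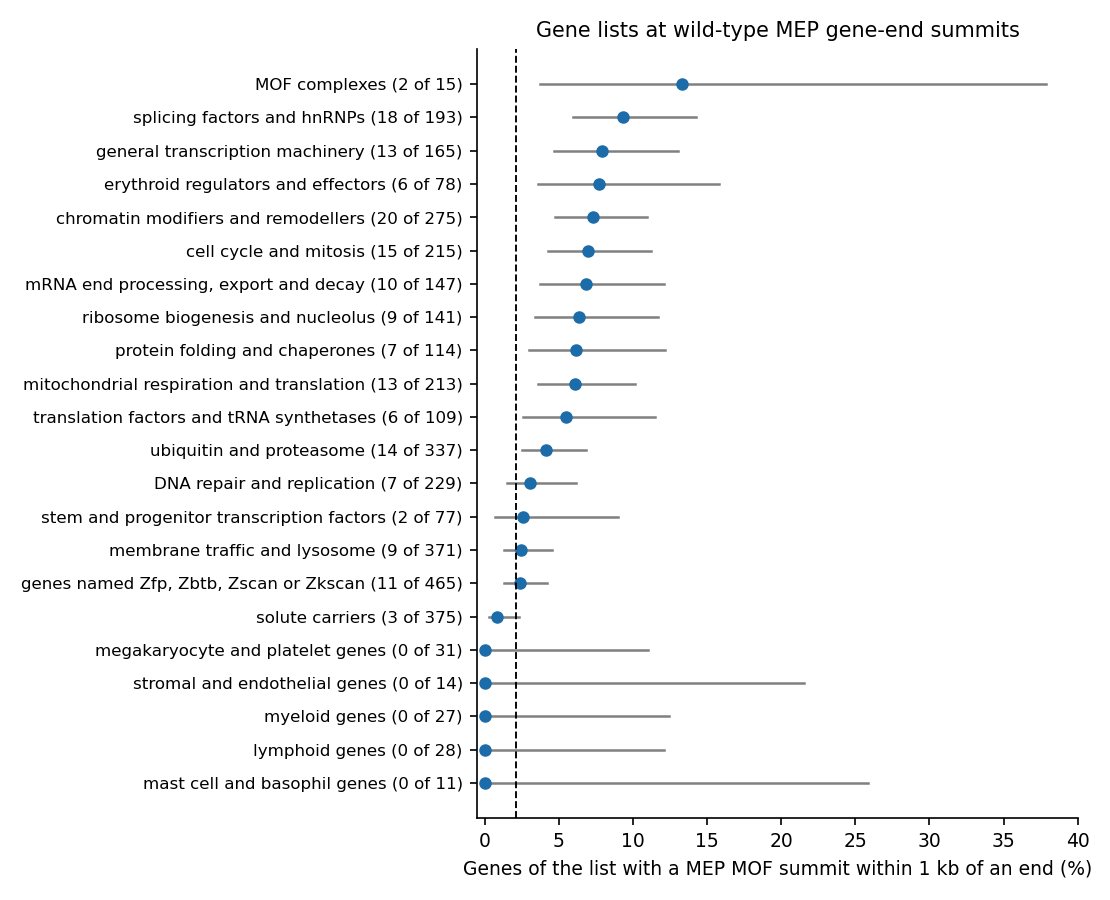
Percent of the genes of each list with a wild-type MEP MOF summit within 1 kb of an end (points), with 95% Wilson intervals (lines) and the 2.14% of all protein-coding genes (dashed line). Splicing, transcription, erythroid, chromatin and cell cycle lists lie between 6.98 and 9.33%, and 5 lineage lists are at 0.

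Member promoters were rich in G, C and CpG. In windows of 250 bases before to 50 bases after the start, 271 member promoters had a median G and C content of 62.3% and a median of 24 CpG, against 56.7% and 14 over 17110 promoters. None of the 271 lacked CpG, against 5.04% of all. The GC box stood in 74.2% of member promoters (68.6 to 79.0%) and in 46.9% of all, and the ETS motif in 20.7% (16.3 to 25.9%) and 12%. NRF1 motifs stood in 14.4% (10.7 to 19.1%) and 6.77%, E-boxes in 14.0% and 8.05%, and the YY1 core (GCCATNTT) in 14.0% and 6.64%. The longer YY1 motif, which can overlap the core, stood in 3.69% and 0.988%. The TATA box was less frequent in member promoters (6.27% and 13.3%), and CCAAT stood in 34.7% and 39.4%. The letters of a motif move with base composition, and its part in these shares was not tested.

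Starts with a summit in HSC but no MEP member were set beside the members. Over 753 of them the median G and C content was 64.3%, the GC box stood in 73.8%, NRF1 in 12.7% and the ETS motif in 29.1% (26 to 32.4%). The ETS interval lies above that of the member promoters, and this difference was not tested. A GATA word stood in 14.4% of member promoters (10.7 to 19.1%) and in 26.4% of all promoters. It stood in 19% (13.6 to 25.8%) of the 158 member promoters without an HSC summit, in 7.96% (4.25 to 14.4%) of the 113 with one and in 12.9% (10.7 to 15.5%) of the HSC-only promoters. The difference between the members with and without an HSC summit was not tested, and their median G and C contents were 63.7% and 61.7%. A match is a description of letters, not a bound site.

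**Figure D5:**
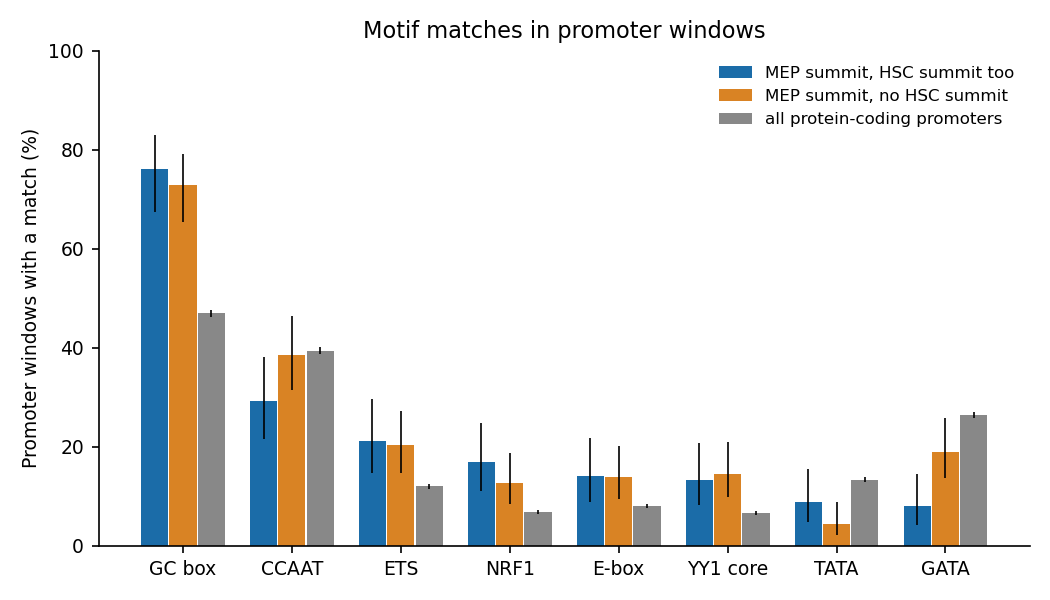
Percent of promoter windows (250 bases before to 50 after the start) with a match to each motif, at member starts with (blue, n = 113) or without (orange, n = 158) an HSC summit and at all 17110 protein-coding promoters (grey); error bars are 95% Wilson intervals. GC boxes stand in 76.1 and 72.8% of member promoters and in 46.9% of all.

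Most members were found in no other list. By overlap with the summit widened by 150 bp on each side, 238 of 372 (64.0%, 59.0 to 68.7%) met no peak of the 4 others, and 2 (Kat8 and Lars2) met a peak in all of them. The same share is not given here for the other MEP summits. Fewer of those (25.7%) than of the members (38.4%) had an HSC summit within 1 kb. An interval of the heterozygous HSC list lay at the same gene end for 14 members (3.76%, 2.25 to 6.22%), of the heterozygous MEP list for 2 (0.538%, 0.148 to 1.94%) and of the GATA1 list for 3 (0.806%, 0.275 to 2.34%). Over all gene ends the shares were 0.205%, 0.00933% and 0.105%. The heterozygous lists held 338 and 64 peaks in all and the GATA1 list 477. List length moves with depth and caller settings, and the genotype cannot be told apart from the library.

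Kat8 and Lars2 were the members in the heterozygous MEP list, with the authors' fold enrichments of 7.00 and 3.33. In the heterozygous HSC list the folds were 13.9 and 4.88. Both also had a GATA1 interval at the same end (chr7:127912478-127912796 and chr9:123461886-123462127), as did Wls (chr3:159939405-159939718). Wls had a heterozygous HSC interval as well (fold 3.45), but no wild-type HSC summit. The other members with a heterozygous HSC interval included Gm40364 (3.21), Gm32584 (4.30), Ptma, the prothymosin gene (4.84), Shoc2 (5.26), Sh3glb1 (6.31), Adprhl2 (6.74) and Zfp36l2 (4.43).

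The 21 members at downstream ends differed in their genes. Besides Lars2, Gm40364 and Wls, they included the predicted gene Gm32584 (9.24 in MEP, 18.8 in HSC), Hes7 (7.60), Tmcc2 (6.84), Hnrnpa2b1 (4.69), Eef1a1 (4.02) and Tfam (3.06). By the starts of the promoter table, another gene began within 1 kb of 3 of them, those at Hyal3, Gapdhs and Gpatch3. These starts can differ from the outer gene boundaries, for which this count is not given. The 4 with an HSC summit were Lars2, Gm40364, Gm32584 and Tmcc2.

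Members with 2 summits at 1 gene were Atf7ip (2.20 and 1.35), Eapp (6.61 and 9.42), Ell (3.70 and 7.62), Fem1a (2.87 and 1.73), Zbtb37 (2.24 and 5.09) and Zfp36l2 (4.54 and 2.99). At Eapp the same HSC summit counted for both members, 1164 and 77 bp from them. At Ell 1 HSC summit also counted for both, 20 and 437 bp away. An HSC summit lay at the end of 1 member at Zfp36l2 and of neither at the other genes. By chromosome, 43 members (11.6%, 8.70 to 15.2%) lay on chromosome 11, which holds 7.45% of gene ends. Chromosome X held 5 (1.34%, 0.575 to 3.11%) against 4.39% of gene ends, and chromosome 13 held 6 (1.61%, 0.741 to 3.47%) against 3.61%. These chromosomes were picked from all those used after their values were seen, and no difference between chromosomes was tested. The X-linked members were Mmgt1 (7.07), Eif2s3x (6.28), Gk (5.38), G6pdx (4.03) and Acot9 (3.15). None of these 5 had an HSC summit, against 38.7% of all members with one, and 5 are too few to tell these shares apart. The sources used here do not give the sex of the animals.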

How the data were processed

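ChIP-seq peak lists of 5 of the 12 samples were used, without the inputs and the H4K16ac library. Per the submitters' processing notes, the authors used Bowtie2 2.3.0.1, MACS2 and deepTools on mm10, with settings that the sources used here do not give. The wild-type MOF lists give summits of 1 bp with a −log10 value that the authors deposited in column 5, read as −log10 q because its minimum (1.31 in HSC, 1.35 in MEP) lies just above that of q = 0.05. The heterozygous MOF lists hold intervals with the fold enrichment, −log10 p and q and a score the authors deposited, and the GATA1 list holds intervals only. Read depth is unknown, and each group had 1 library.

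Gene boundaries came from RefSeq (GRCm38.p6, 21631 protein-coding genes on chromosomes 1 to 19 and X), and strand and promoters from a RefSeq promoter table with 17274 of them. A summit was assigned to its nearest gene end within 1 kb, and the same gene end had an HSC summit if one lay within 1 kb of it. Shares have Wilson intervals, and 1 two-sided Fisher's exact test was run (scipy 1.17.1, Python 3.11.15). The matching was tested on simulated summits. Members and lists were chosen with earlier results of these data known. Genes named are the 15 highest peak values with and without an HSC summit, up to 6 per list, genes with 2 summits, up to 10 per other list and the 3 nearest each side of 1 kb. Others were chosen after their values were seen. Alternatives changed the window, the peak value cut, the overlap rule, regions found in most lists and the families left out.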

Additional observations from a re-analysis of the deposited data

Results flagged for a closer look

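The wild-type MEP list held 44 summits on chromosome Y, the mitochondrial genome or scaffolds, outside the chromosomes used here. Of these, 32 were on scaffolds with a median peak value of 38.2, 11 on chromosome Y with a median of 12.6 and 1 on the mitochondrial genome with 65.6. These values are higher than the members' median of 5.19, and the cause was not tested.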

How the results depend on the processing

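Each group had 1 library, and the depth of the lists is unknown. With windows of 500 bp or 2 kb the number of members was 332 or 417, and with the left-out families kept it was 418. Among summits above the median peak value 154 were members, with 71 listed genes against 163, 44.8% with an HSC summit at the same end, and an odds ratio of 1.44, not past the threshold. Fewer summits enter that alternative. Counting only HSC summits above the HSC median gave 23.1% with an HSC summit. A window of 2 kb gave 30.5% with 2 or more genes. Without the regions found in most lists, which removes Kat8 and Lars2, no member had a heterozygous MEP interval (0%), 0.270% had a GATA1 interval, and the median peak value of members minus that of other summits was -0.381, against -0.795. All odds ratios run exceeded 1 (1.44 to 2.33), the share at starts lay between 91.6 and 95.3%, and the share with an HSC summit in the other alternatives lay between 35.5 and 39.1%. For the 17 gene lists with a member, 52 of 68 recounts lay within 1.5 times the count given, 4 of 17 with only summits above the median peak value and 48 of 51 under the other alternatives. The 3 exceptions among these were mitochondrial genes with a window of 500 bp (7), stem and progenitor factors with 2 kb (4), and the MOF complexes without regions found in most lists (1). No paired analysis was possible because each group had 1 library.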
